A study of Rattus norvegicus with 50 samples.

Results

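The 46 complement and coagulation genes described here were chosen by gene symbol from the array's gene spots, with earlier results of these data known. They are 46 of 25885 genes on the array and 46 of the 25208 whose signal passed the filter on low values, so no member was lost. They comprise 9 genes of the classical and lectin pathways, 4 of the alternative pathway, 7 terminal components, 2 complement receptors, 6 complement regulators, 11 clotting factors, 4 anticoagulants and 3 genes of fibrinolysis. The lungs came from male F344 rats, an inbred strain, aged 12 weeks when exposure began. The exposed rats breathed an aerosol of TiO2 P25 nanoparticles at 10 mg/m3 by nose-only inhalation, for 6 hours a day on 5 days a week over 4 weeks, and the control rats breathed air. Different rats were taken at the end of exposure (D0) and at D3, D28, D90 and D180 after it, giving 10 groups of 5 rats, each rat with its own array. Only the accessory lobe was measured, so other lobes, the liver and the plasma were not analysed here.

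Complement is a set of plasma and cell surface proteins that tag and lyse foreign material and attract leukocytes. The classical pathway starts at antibodies and surfaces bound by C1q, the lectin pathway at sugars, and the alternative pathway keeps itself running on surfaces through C3 and factor B. These pathways meet at the cleavage of C3, after which C5 to C9 can assemble into a pore in a membrane, while regulators such as factor I and C4b-binding protein break the active fragments down. Coagulation turns prothrombin into thrombin and fibrinogen into fibrin, and fibrinolysis dissolves the clot through plasminogen activators. The liver makes most of these proteins for the blood, and lung epithelium, macrophages and endothelium make some of them locally.

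Signal was read as normalized log2 intensity, so a difference of 1 is a doubling. A gene counted as a DEG, that is as called, when limma gave it a 1.5-fold or larger change with an adjusted p under 0.05, adjusted over all genes tested. Of the 46 genes, 36 were well above background on all 50 arrays. The others were Masp2 (1 array), F9 (3), F7 (4), C8a (9), C8b (14), F10 (14), Proc (37), F12 (38), C3ar1 (48) and F13a1 (49). All 8 lung epithelium markers, surfactant proteins and Scgb1a1 among them, were well above background on all 50 arrays. Of the 8 hepatocyte markers, Alb was above background on 2 arrays and Apoh on 4, while Ahsg, Serpina1 and Cyp2e1 were above it on all 50, and with no fold limit 3 of the 8 were lower and none higher in exposed rats at D0. The median signal of an array ran from 198 to 473 in linear units, and arrays of 1 group correlated across genes at 0.974 to 0.996. The arrays lay on 7 slides. The 3 early days shared 4 slides and the 2 late days shared 3, but exposed replicate 1 of D3 lay on a late slide.

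At D0, 8 of the 46 genes were over-expressed in exposed rats and 2 were under-expressed, where 2.77% and 1.51% of all genes tested were called in these directions. Over-expressed were C3, Cfb, C6, C9, C3ar1, C4bpa, Cfi and F2, and under-expressed were F13a1 and Plat. At D3, 6 were over-expressed and 1 under-expressed, against 1.98% and 1.51% of all genes. At D28, 3 genes (C3, C4bpa and Cfi) were over-expressed against 0.861% of all genes, and at D90 only Cfi was, against 0.246%. None was under-expressed at D28 or D90. With no fold limit, 1.44% and 0.357% of all genes were lower at these days at an adjusted p under 0.05. At D180 limma called none of the 46, against 0.325% of all genes in either direction, although 9 had an unadjusted p under 0.05 with no fold limit (8.05% of all genes did). Over the 5 days 11 genes were called at least once and 35 never were. In whole lobe RNA, more cells of a type and more RNA per cell cannot be told apart.

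The median log2 change of the 46 genes was 0.22 at D0. It was 0.10 at D3 and at D90, 0.12 at D28 and 0.04 at D180, while the median over all genes tested lay within 0.02 of 0 on each day. With no fold limit, 18 genes were higher and 4 lower at D0 at an adjusted p under 0.05, against 6.93% and 6.58% of all genes. The D3 counts were 13 and 3 (4.89% and 5.53% of all genes), and those of D28 were 7 and 1 (2.44% and 1.44%). At D90 and D180 none was lower (0.357% and 0.258%), and 4 were higher at D90 (0.69% of all genes) and 3 at D180 (0.635%). From D0 to D180, all 5 exposed rats lay above all 5 control rats for 12, 10, 8, 6 and 5 genes, against 4.75%, 3.35%, 2.23%, 2.2% and 2.77% of all genes. They lay below all controls for 3 genes at D0 (Plat, Thbd and Vwf), 2 at D3 (F13a1 and Thbd) and 1 at D180 (Plat), against 3.77%, 3.42% and 1.45%.

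**Figure D1:**
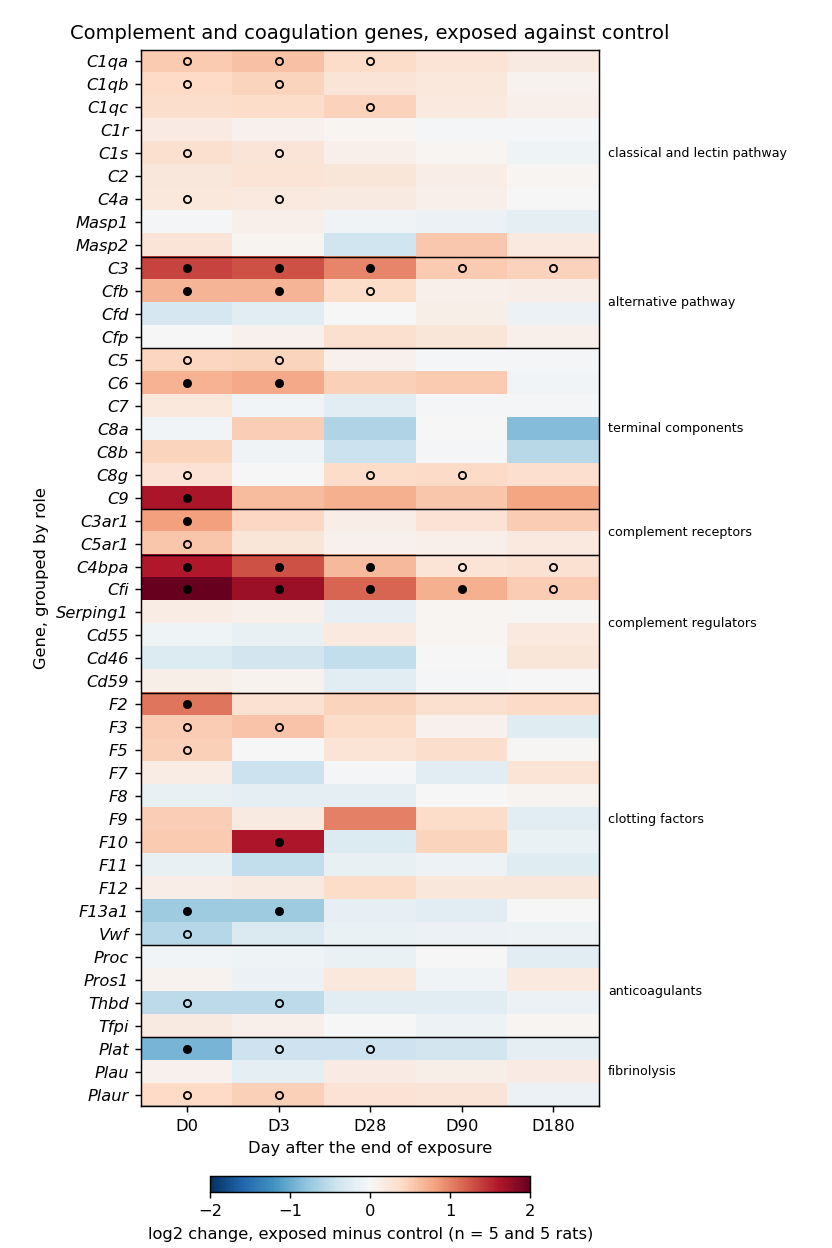
Log2 change of the 46 genes in exposed against control rats (colour, red higher in exposed) at each day after the end of exposure (columns), with genes in rows grouped by role. A filled circle marks a gene called at 1.5-fold and an adjusted p under 0.05, and an open circle one with an adjusted p under 0.05 below that fold; the filled circles number 10, 7, 3, 1 and 0 from D0 to D180.

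Promoter sequence is shown for C3 and C4bpa, which were over-expressed together at D0, D3 and D28. RefSeq promoter windows of assembly GRCr8 were matched to 30 of the 46 genes by symbol. The genes without a match were C1qc, C1s, C2, Masp2, Cfb, C7, C8g, C9, C5ar1, Serping1, Cd59, F3, F8, Vwf, Thbd and Plat. The first 250 bases of each window were searched on both strands. The searches were for the letters TTNNGNAA (a loose C/EBP motif) and TTCNNNGAA (STAT), for the NF-kB consensus and for the TATA box as TATAAA. The C/EBP letters occurred in 14 of the 30 members (46.7%) and in 37.2% of all 33469 promoters, and the NF-kB consensus in 1 member (3.33%) and in 3.54% of all. The STAT letters were found in 13.3% of members and 7.67% of all promoters, and the TATA letters in none of the 30 members and 12.9% of all. Capitals below mark C/EBP matches, and only bases outside the gene's annotated span are given, 5′ to 3′ on the gene's strand.
C3, chr9:2201340-2201589, minus strand: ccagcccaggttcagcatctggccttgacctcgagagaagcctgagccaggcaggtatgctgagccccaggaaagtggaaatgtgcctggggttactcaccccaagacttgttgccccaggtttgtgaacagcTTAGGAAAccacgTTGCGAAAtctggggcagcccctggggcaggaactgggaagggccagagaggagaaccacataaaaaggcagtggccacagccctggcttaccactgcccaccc
C4bpa, chr13:44663553-44663721, minus strand: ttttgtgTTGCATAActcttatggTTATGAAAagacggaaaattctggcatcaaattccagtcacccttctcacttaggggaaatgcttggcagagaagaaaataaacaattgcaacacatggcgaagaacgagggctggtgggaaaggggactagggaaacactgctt
Counted back from the end of the 250 bases searched, the matches began at 117 and 104 for C3 and at 243 and 226 for C4bpa. For C4bpa only the first 169 of these bases lie outside the annotated span, so its matches lie nearer to the edge of that span. For C6, 3 such matches were found. In the Cfi window none of the 4 motifs was found. Most of the bases searched there lie inside the annotated span of Cfi. Its sequence is therefore not shown, although Cfi was over-expressed at D0, D3 and D28 too. These matches are letters in a window and are not sites of binding measured here.

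The classical pathway genes changed little in size. C1qa, C1qb and C1qc encode the 3 chains of C1q, C1r and C1s the proteases bound to it, and C2 and C4a the proteins they cleave. None of these genes or of the lectin pathway proteases Masp1 and Masp2 was called at any day. With no fold limit, 4 of the 9 were higher at D0 (C1qa, C1qb, C1s and C4a), the same number at D3, 2 at D28 (C1qa and C1qc) and none at D90 or D180. C1qa had the largest change of the group. At D3 its log2 values were 12.02, 12.07, 12.29, 12.31 and 12.02 in control rats and 13.06, 12.86, 12.67, 12.51 and 12.51 in exposed rats. All 5 exposed rats lay above the controls, with a log2 change of 0.58 (SE 0.11, adjusted p = 2.2e-04), just under the 1.5-fold limit. It was called at D3 under 75th percentile scaling (0.59) and in the deposited series matrix values (0.59), and without any 1 of control replicates 3 and 4 and exposed replicates 3, 4 and 5 of that day. At D0 the change was 0.52 (adjusted p = 6.5e-04), with the lowest exposed rat (12.35) inside the control range of 11.90 to 12.44.

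The log2 change of C1qb was 0.39 at D0 and 0.45 at D3 (SE 0.08, adjusted p = 2.6e-04 and 5.7e-05). C1s was higher by 0.32 and 0.25 (adjusted p = 5.4e-03 and 0.040), and C4a by 0.21 and 0.20 (adjusted p = 0.022 and 0.040). The C4a probe may also bind transcripts of C4b, a near-identical gene that has no probe of its own name on the array. C1qc passed only at D28 (0.47, adjusted p = 0.025). With slides as blocks it also passed at D0 (0.39, adjusted p = 1.75e-04) and D3 (0.33, adjusted p = 3.3e-03). C1r ranged from -0.02 to 0.16 over the 5 days, Masp1 from -0.18 to 0.11 and C2 from 0.04 to 0.28, and none of them had an adjusted p under 0.05. A second C2 probe, of similar brightness, did pass at D3 (0.44, adjusted p = 0.014), as did C2 with slides as blocks at D0 (0.28, adjusted p = 0.024) and D3 (0.35, adjusted p = 9.6e-03). Masp2 was above background on 1 array and gave no usable level.

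In the alternative pathway C3 and Cfb were over-expressed, and Cfd and Cfp were not. C3 is the protein on which all complement pathways converge. Its log2 values at D0 were 14.96, 14.81, 14.83, 14.84 and 15.30 in control rats and 16.19, 16.31, 16.36, 16.37 and 16.27 in exposed rats. At D180 they were 14.92, 15.13, 15.00, 15.11 and 14.76 in control rats and 15.55, 15.28, 15.41, 15.40 and 15.55 in exposed rats. Every exposed rat lay above every control rat of its day at all 5 days. Group means of control rats stayed between 14.84 and 14.98, while those of exposed rats were 16.30 ± 0.07 (SD, n = 5), 16.20 ± 0.08, 15.81 ± 0.08, 15.40 ± 0.15 and 15.44 ± 0.11 in the order of the days. The change was thus 2.56-fold at D0 (adjusted p = 7.7e-17), followed by 2.41-fold and 1.96-fold at the next 2 days. It was 1.43-fold on D90 (adjusted p = 7.8e-05) and 1.37-fold on D180 (adjusted p = 6.8e-04), both under the fold limit. The exposure effect was smaller at D180 than at D0 by 0.90 on the log2 scale (95% interval -1.13 to -0.67, adjusted p = 3.6e-07), a test called for 2.24% of all genes. The difference at D28 was -0.39 (adjusted p = 0.058).

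Cfb encodes factor B, which pairs with C3b to form the C3-cleaving enzyme of the alternative pathway. Its values at D0 were 16.50, 16.38, 16.44, 16.43 and 16.48 in control rats and 17.14, 17.11, 17.10, 17.18 and 17.10 in exposed rats. At D3 they were 16.61, 16.58, 16.60, 16.53 and 16.54 in control rats and 17.21, 17.28, 17.28, 17.19 and 17.27 in exposed rats. The groups did not overlap on either day, and the spread within a group was small beside the difference between them, with SDs of 0.03 to 0.05. The change was 1.60-fold at D0 (log2 0.68, SE 0.05, adjusted p = 7.7e-15) and 1.60-fold at D3 (adjusted p = 2.0e-14). At D28 it was 1.29-fold (adjusted p = 7.8e-07) with no overlap, and at D90 (0.10, adjusted p = 0.60) and D180 (0.13, adjusted p = 0.25) it did not pass. Cfd, the protease that activates factor B, had changes from -0.34 to 0.12, and Cfp, properdin, which stabilises that enzyme, from -0.01 to 0.33, none with an adjusted p under 0.05. All 5 exposed rats lay above the controls for Cfp at D90.

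**Figure D2:**
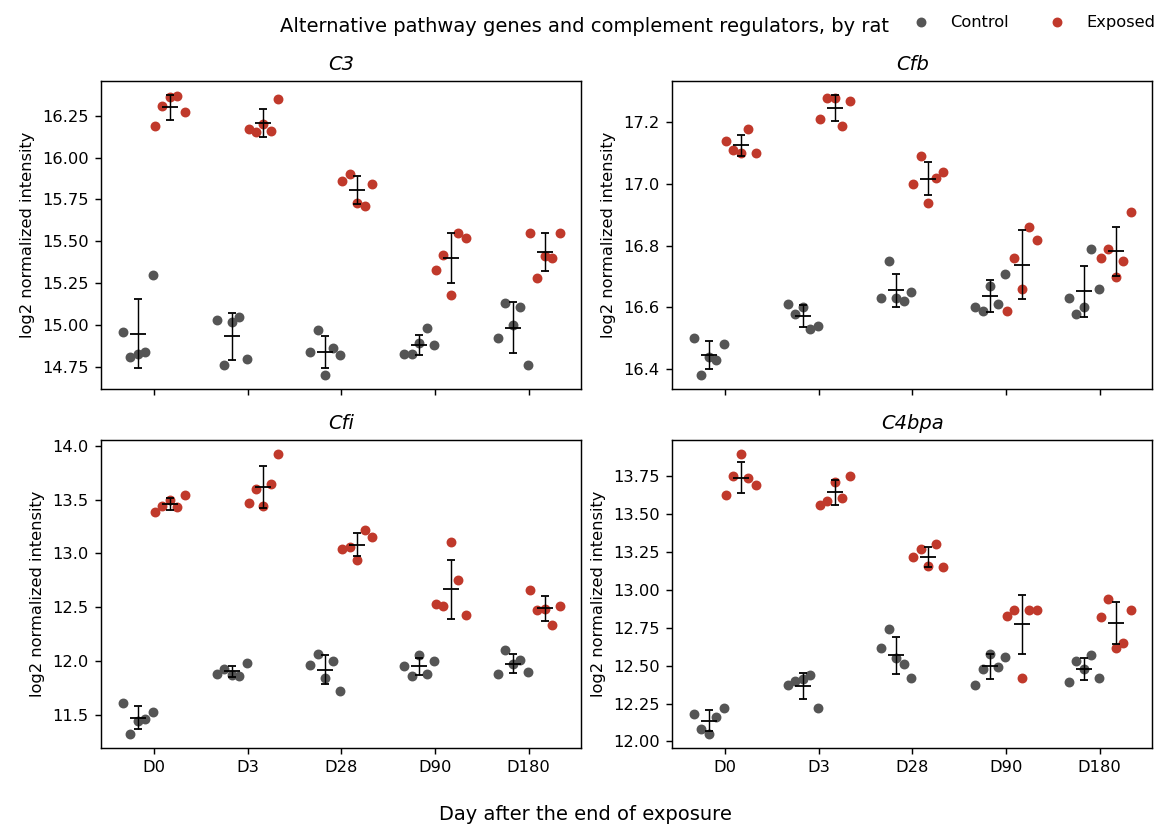
Normalized log2 intensity of C3, Cfb, Cfi and C4bpa in each rat (points; grey control, red exposed) by day after the end of exposure, with mean and SD of 5 rats in black. Exposed C3 and Cfi values lie above all controls of the same day at every day, and the distance shrinks from D0 to D180.

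Among the complement regulators Cfi and C4bpa carried the changes. Cfi encodes factor I, the protease that inactivates C3b and C4b. Its values at D0 were 11.61, 11.32, 11.44, 11.46 and 11.52 in control rats and 13.39, 13.44, 13.50, 13.43 and 13.54 in exposed rats. At D90 they were 11.95, 11.86, 12.05, 11.88 and 12.00 in control rats and 12.53, 12.51, 13.11, 12.75 and 12.43 in exposed rats. At D180 they were 11.88, 12.10, 11.97, 12.01 and 11.90 in control rats and 12.66, 12.47, 12.48, 12.33 and 12.51 in exposed rats. As for C3, no exposed rat fell within the control range on any of the 5 days. The change was 3.98-fold at D0 (log2 1.99, SE 0.09, adjusted p = 1.0e-20), then 3.28-fold (D3), 2.24-fold (D28), 1.64-fold (D90, adjusted p = 9.0e-07) and 1.43-fold (D180, adjusted p = 4.7e-04, under the fold limit). This was the largest log2 change among the 46 genes at D0, D3, D28 and D90. The effect was smaller than at D0 by 0.83 at D28 (adjusted p = 2.1e-05) and by 1.48 at D180 (adjusted p = 3.3e-11) on the log2 scale. The interaction was called for 1.61% of all genes at D28. Control rats at D0 had a lower Cfi mean (11.47) than at the other days (11.90 to 11.97), and control D3 exceeded control D0 by 0.43 (adjusted p = 8.4e-04).

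C4bpa encodes the alpha chain of C4b-binding protein, a cofactor for factor I. Its values at D0 were 12.18, 12.08, 12.05, 12.16 and 12.22 in control rats and 13.63, 13.75, 13.90, 13.74 and 13.69 in exposed rats. At D28 they were 12.62, 12.74, 12.55, 12.51 and 12.42 in control rats and 13.22, 13.27, 13.16, 13.30 and 13.15 in exposed rats. Both days had no overlap. The change was 3.04-fold at D0 (log2 1.60, SE 0.07, adjusted p = 1.0e-20), 2.42-fold at D3 (adjusted p = 4.1e-17) and 1.57-fold at D28 (adjusted p = 2.3e-08), and it fell under the fold limit at D90 (1.21-fold, adjusted p = 0.046) and D180 (1.23-fold, adjusted p = 0.026). At D90 exposed replicate 3 (12.42) lay among the controls. The exposure effect was smaller than at D0 by 0.95 at D28 (adjusted p = 2.2e-08) and by 1.30 at D180 (adjusted p = 3.3e-12). Serping1, the C1 inhibitor, ranged from -0.16 to 0.14, and the membrane regulators Cd55, Cd46 and Cd59 from -0.15 to 0.20, from -0.49 to 0.25 and from -0.22 to 0.12, with no adjusted p under 0.05.

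Of the terminal components C6 and C9 were over-expressed, C9 at D0 only. C9 is the protein that polymerises into the membrane pore. Its values at D0 were 6.42, 6.94, 6.83, 6.66 and 6.71 in control rats and 8.36, 8.23, 8.60, 8.06 and 8.43 in exposed rats. The groups were well apart, with a 3.09-fold change (log2 1.63, SE 0.25, adjusted p = 5.2e-06), or 1.13 on the log2 scale under normexp background correction. At D3 the exposed values were 6.58, 7.24, 7.27, 7.85 and 7.86 against control values of 6.69, 6.93, 6.53, 6.11 and 7.39, with a change of 0.63 (adjusted p = 0.11). The lowest of them was replicate 1, the array on another slide, and without it the change was 0.83, a call. A fit with the slides as blocks called C9 at D3 (0.90, adjusted p = 6.4e-04), D28 (0.82, adjusted p = 2.3e-03) and D180 (0.71, adjusted p = 0.021), where the values without the block were 0.63, 0.70 (adjusted p = 0.12) and 0.80 (adjusted p = 0.15). The difference between its D0 and later effects was not called at D28 (-0.92, adjusted p = 0.21) or D180 (-0.83, adjusted p = 0.26), but both were called with the block (-0.82, adjusted p = 0.046, and -0.93, adjusted p = 0.012).

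C6 joins C5b at the first step of pore assembly. Its values at D3 were 9.39, 10.01, 9.10, 8.97 and 9.37 in control rats and 10.46, 9.85, 10.04, 10.11 and 10.20 in exposed rats. Control replicate 2 lay above the lowest exposed rat, and the other 4 controls lay below all of them. The change was 1.63-fold at D0 (adjusted p = 3.6e-03), with no overlap, and 1.70-fold at D3 (adjusted p = 1.9e-03). With only the arrays of D3 the D3 call was lost (adjusted p = 0.067), and under normexp background correction the D0 change was 0.58 on the log2 scale, just under the fold limit. At D28 (0.47, adjusted p = 0.13) and D90 (0.53, adjusted p = 0.19) the exposed rats again all lay above the controls without a call, and at D180 the change was -0.05. At D180 control replicate 3 lay at 10.27, with the other controls at 9.06 to 9.18. C5, the precursor of the chemoattractant C5a, changed by 0.43 at D0 (adjusted p = 3.3e-04) and by 0.44 at D3 (adjusted p = 2.6e-04), without overlap on either day, and by 0.08 at D28. C8g, a chain of C8, was higher by 0.29 at D0, 0.37 at D28 and 0.39 at D90 (adjusted p = 0.030, 0.013 and 0.023). C7 did not pass on any day, and the other C8 chains, C8a and C8b, were mostly not above background.

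C3ar1 and C5ar1, the receptors of the fragments C3a and C5a on leukocytes, were higher at D0. The C3ar1 values at D0 were 4.99, 5.14, 5.14, 4.77 and 5.48 in control rats and 5.90, 5.91, 5.44, 6.14 and 6.21 in exposed rats. Exposed replicate 3 lay just inside the control range. The change was 1.76-fold (log2 0.82, SE 0.17, adjusted p = 3.4e-04), with the control group well above background on 3 of 5 arrays, and it was 0.33 under normexp and 0.41 in the series matrix values, below the fold limit. Control rats alone differed between D0 and D3, from 5.11 ± 0.26 to 6.24 ± 0.28 (SD, n = 5), a rise of 1.13 (adjusted p = 3.6e-06). The exposed mean at D0 (5.92) was thus below the control mean at D3. C5ar1 was higher by 0.56 at D0 (adjusted p = 9.2e-04), without overlap and under the fold limit, and control rats were again higher at D3 than at D0, by 0.40 (adjusted p = 0.033). Neither receptor passed at a later day, although C5ar1 did at D3 with slides as blocks (0.30, adjusted p = 0.015). Leukocyte markers were read beside these receptors. With no fold limit 4 of 8 neutrophil markers were higher at D0 and 6 of 8 at D3, and the marker score, the mean deviation of the list's genes, ran from -0.48 to -0.03 in control and from 0.45 to 0.70 in exposed rats at D0. Of the 8 macrophage markers 3 were higher at D0 and 1 at D3, with scores from -0.21 to -0.10 in control and from -0.04 to 0.56 in exposed rats at D0. Only 5 of these 8 had a positive change at D0 (changes from -0.20 to 1.92), and 4 at D3. Of the 7 lymphocyte markers 3 were higher at D0 and 1 at D3, and all 7 had a positive change at D0 (median 0.52). Between control rats at D3 and D0, 3 of 7 lymphocyte markers were higher (median 0.46, all 7 positive), while no neutrophil marker passed (median -0.11). Of the 8 neutrophil markers, Elane and Mpo were above background on 2 and 17 arrays and all the others on 50. Of the macrophage markers, Marco was above background on 11 arrays and all the others on 50. The part of these cells in the results was not tested.

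Clotting factors moved in both directions. F2, prothrombin, was over-expressed at D0. Its values were 6.88, 6.88, 7.15, 6.28 and 6.38 in control rats and 7.46, 7.61, 8.09, 7.74 and 8.0 in exposed rats, with no overlap. The change was 2.10-fold (log2 1.07, SE 0.17, adjusted p = 9.5e-06). At later days it lay between 0.30 and 0.44 with adjusted p-values from 0.15 to 0.83, and control rats were higher at D3 than at D0 by 0.58 (adjusted p = 0.029). At D180 all 5 exposed rats still lay above the controls, by 0.39 (adjusted p = 0.50).

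F10, factor X, was over-expressed at D3 alone. Its values were 3.84, 4.39, 3.97, 3.56 and 4.06 in control rats and 5.91, 5.74, 5.90, 4.57 and 5.78 in exposed rats. The signal was dim, since 1 of 5 control arrays and 4 of 5 exposed arrays were well above background. The log2 change was 1.62 (SE 0.30, adjusted p = 1.5e-04), and it was 0.47 under normexp (adjusted p = 1.2e-05) and 0.51 in the series matrix values (adjusted p = 3.1e-05), both under the fold limit. At the other days it lay between -0.28 and 0.53 and did not pass. Exposed replicate 4 was the lowest of its group, and still above all controls.

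F13a1, the subunit of factor XIII that cross-links fibrin, was under-expressed at D0 and D3. Its values at D0 were 6.13, 7.44, 6.58, 6.54 and 6.27 in control rats and 6.38, 6.07, 5.19, 5.35 and 6.39 in exposed rats. The groups overlapped, and control replicate 2 lay far above the others. The change at D0 was -0.72 (SE 0.19, adjusted p = 5.5e-03). It was -0.50 without control replicate 2 (adjusted p = 0.051) and -0.55 without exposed replicate 3 (adjusted p = 0.044), and neither of these was called. With only the arrays of D0 the adjusted p was 0.29. On single slides the D0 difference ran from -2.25 to 0.18. At D3 the values were 6.24, 6.35, 6.18, 6.31 and 6.41 in control rats and 5.72, 5.66, 5.16, 5.83 and 5.58 in exposed rats, with no overlap, a change of -0.71 (adjusted p = 8.0e-03) and single-slide differences from -1.15 to -0.41. Under normexp it was -0.36 at D0 and -0.34 at D3, below the fold limit.

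F3, tissue factor, which starts clotting, changed by 0.51 at D0 (adjusted p = 0.035) and by 0.58 at D3 (adjusted p = 0.018), just under the fold limit. The D3 change was called when slides were fitted as blocks (0.69, adjusted p = 4.4e-04), and under 75th percentile scaling, normexp and the series matrix values (0.60, 0.60 and 0.62). F5 was higher by 0.48 at D0 (adjusted p = 3.4e-03). F8, F11 and F12 did not pass on any day, with changes from -0.19 to 0.06, from -0.49 to -0.10 and from 0.14 to 0.36. F7 and F9 were above background on 4 and 3 of 50 arrays, so that the change of 1.01 for F9 at D28 had no level behind it in 5 control and 4 exposed rats.

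**Figure D3:**
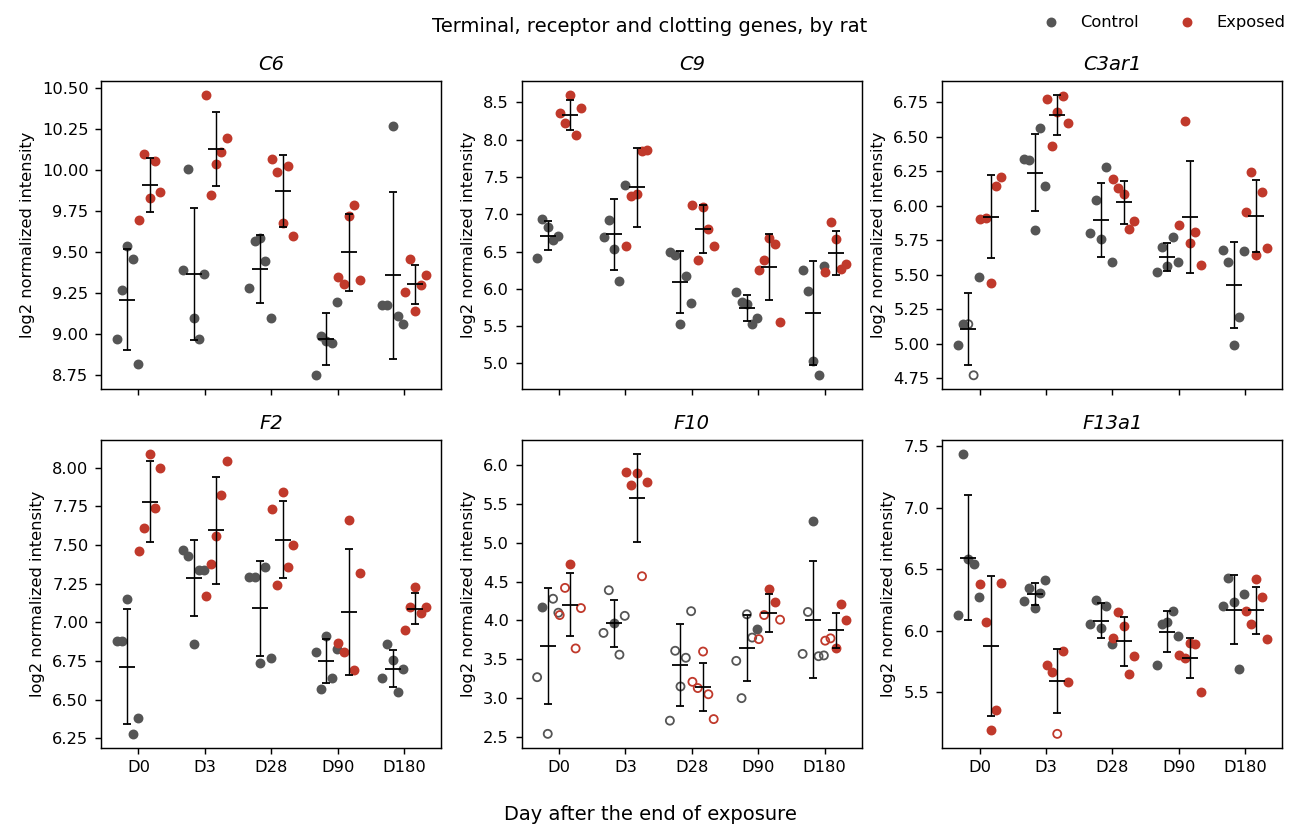
Normalized log2 intensity of C6, C9, C3ar1, F2, F10 and F13a1 in each rat (points; grey control, red exposed; open points not well above background) by day after the end of exposure, with mean and SD of 5 rats in black. C9 separates at D0 and F10 at D3, and the control values of C3ar1 rise from a mean of 5.11 at D0 to 6.24 at D3.

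Plat, Thbd and Vwf, of 3 different roles, were lower at D0. Plat encodes tissue plasminogen activator, which is released by endothelium and starts fibrinolysis. Its values at D0 were 13.72, 14.26, 13.87, 13.90 and 13.47 in control rats and 12.99, 12.87, 12.95, 12.80 and 13 in exposed rats. All exposed rats lay below the controls, and Plat was under-expressed 1.90-fold (log2 -0.92, SE 0.12, adjusted p = 1.6e-07). At D3 (-0.42, adjusted p = 0.018) and D28 (-0.41, adjusted p = 0.045) it was lower below the fold limit, and at D90 (-0.37) and D180 (-0.20) it did not pass. The effect at D180 differed from that at D0 by 0.73 (adjusted p = 6.3e-03). Control rats alone fell from 13.85 ± 0.29 at D0 to 13.23 ± 0.19 at D3 (log2 change -0.62, adjusted p = 5.0e-04), and lay at 13.31 to 13.53 from D28 on. Plat and C3ar1 were the only members called between control rats at D3 and D0, where 2.33% of all genes were called. No member was called between control rats at D28 and D3, where 0.639% of genes were, although 8 had an unadjusted p under 0.05 (8.28% of all genes did). With slides as blocks C9 was called lower at D28 (-0.60, adjusted p = 0.049).

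Thbd, thrombomodulin, turns thrombin into an activator of the anticoagulant protein C. Its values at D0 were 15.58, 15.75, 15.76, 15.84 and 15.71 in control rats and 15.15, 15.36, 15.04, 15.31 and 15.14 in exposed rats. At D3 they were 15.38, 15.49, 15.36, 15.47 and 15.67 in control rats and 14.80, 14.89, 15.02, 15.00 and 15.06 in exposed rats. The groups did not overlap on either day. The change was -0.52 on both days (SE 0.07, adjusted p = 2.7e-07 and 5.5e-07), just under the fold limit, and a second Thbd probe changed by -0.67 at D0 and -0.48 at D3. With the mean of the gene's probes it was called at D0 (-0.60). Proc, Pros1 and Tfpi, the other anticoagulants, did not pass on any day. The change of Tfpi, also made by endothelium, was 0.19 at D0 and 0.10 at D3. A second, dimmer Tfpi probe changed by 0.04 at D0 and by -0.34 at D3 (adjusted p = 0.078).

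Vwf, von Willebrand factor, the platelet adhesion protein of endothelium, went from 15.07 ± 0.12 in control to 14.50 ± 0.25 in exposed rats at D0 (SD, n = 5), without overlap (log2 change -0.56, SE 0.10, adjusted p = 7.0e-05). At D3 the change was -0.29 and did not pass, although it did with slides as blocks (-0.38, adjusted p = 7.7e-06). A second Vwf probe changed by -0.51 at D0 and by -0.28 at D3, both with an adjusted p under 0.05. With no fold limit, 5 of 8 endothelial markers were lower at D0 and 4 of 8 at D3, and all 8 had a negative change on both days, from -0.87 to -0.11 at D0. The endothelial marker score ran from 0.16 to 0.35 in control rats and from -0.31 to -0.11 in exposed rats at D0. All 8 markers were well above background on all 50 arrays, and their part in the lower Plat, Thbd and Vwf values was not tested. Other lists were lower too. Of 5 mesothelium markers 1 was lower at D0 and 3 at D3, of 7 fibroblast and smooth muscle markers 3 and 1, and of 6 red blood cell markers 2 and 1. All mesothelium and red blood cell markers had a negative change on both days. Plau, urokinase, did not pass on any day, while its receptor gene Plaur changed by 0.39 at D0 (adjusted p = 0.034) and by 0.48 at D3 (adjusted p = 9.1e-03), and a second Plaur probe changed by 0.36 and 0.48.

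**Figure D4:**
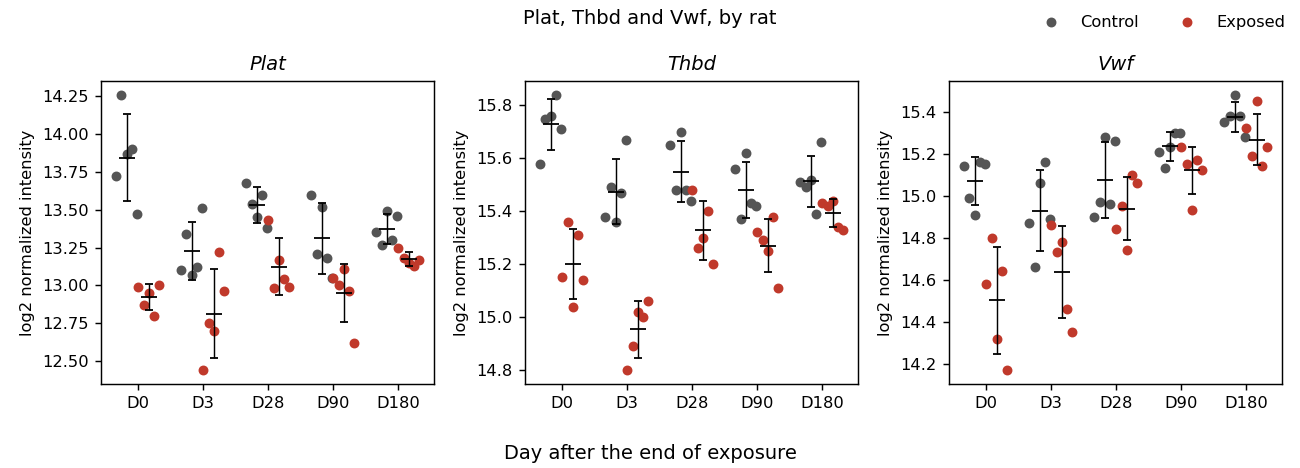
Normalized log2 intensity of Plat, Thbd and Vwf in each rat (points; grey control, red exposed) by day after the end of exposure, with mean and SD of 5 rats in black. At D0 the 5 exposed rats lie below all 5 control rats in each of the 3 genes, and the Plat controls are highest at D0.

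The called changes were also read within slides. At D0, exposed minus control on the 4 slides ran from 1.06 to 1.56 for C3, from 0.64 to 0.72 for Cfb, from 1.83 to 2.19 for Cfi, from 1.43 to 1.82 for C4bpa, from 1.49 to 1.79 for C9, from 0.83 to 1.40 for F2 and from -1.32 to -0.60 for Plat. The C6 differences were 0.33 to 0.81 and those of C3ar1 0.30 to 1.25. At D3, F10 differed by 0.72 to 2.34 over 4 slides. At D28, over 3 slides, C3 differed by 0.88 to 1.05, C4bpa by 0.57 to 0.79 and Cfi by 0.96 to 1.39, and at D90 Cfi by 0.63 to 0.82. Of the genes called, only F13a1 at D0 changed sign between slides. Fitting slides as blocks lost no call. With no fold limit, some members that passed on no day without the block then had an adjusted p under 0.05. They were C1r (0.16), C7 (0.20), Cd46 (-0.31), Cfd (-0.35) and F8 (-0.19) at D0, Serping1 (0.22) and Cd55 (-0.18) at D3, Cfp (0.26) at D28, and C2 as given above, all under the fold limit. The share of all genes that passed with the block was not counted, so no background stands beside these gains.

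Genes of the circadian clock also differed between exposed and control rats. Of 11 core clock genes, limma called 1 higher and 6 lower at D0, and 6 higher and 4 lower at D28. It called 2 higher and 6 lower at D3, 6 and 3 at D90, and 5 and 3 at D180. Between control rats at D28 and D3, 3 were called higher and 6 lower. The score of the 11 genes ran from 0.38 to 0.59 in control and from -0.47 to -0.04 in exposed rats at D0. At D28 it ran from -0.54 to -0.36 in control and from -0.03 to 0.27 in exposed rats. The log2 changes of single clock genes ran from -3.27 to 1.26 at D0 and from -1.47 to 3.27 at D28. Opposite changes cancel in the score, so it does not give a common direction. In the tests of the exposure effect at D28 and at D180 against D0, 9 of the 11 were called each time, with differences from -2.73 to 6.31 and from -2.36 to 6.30. The part of the clock genes in the changes of the members on each day, and in the smaller later effects, was not tested.

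Besides the members, 47 other complement, clotting and fibrinolysis genes were tested. Of these, 11 were over-expressed and 4 under-expressed at D0 (2.77% and 1.51% of all genes), and 12 and 2 at D3 (1.98% and 1.51%). At D28, D90 and D180, 4, 2 and 2 were over-expressed and none was under-expressed. Of all genes, 0.861% were over-expressed at D28 and 0.246% at D90, and 0.325% were called in either direction at D180. The largest changes were those of the kininogens Kng1l1 and Kng1, precursors of kinins and cofactors of contact activation, at 2.60 and 2.44 on the log2 scale. Cpb2, an inhibitor of fibrinolysis, was over-expressed at D0 (1.59, adjusted p = 1.6e-04), with 2 of 5 control arrays above background. Fcnb and Mbl1, starters of the lectin pathway, were over-expressed at D0 by 1.56 and 1.21. Serpine2, a protease inhibitor, rose at D3 by 1.13. Fgg, the gamma chain of fibrinogen, rose by 0.98 at D0 and 1.01 at D3, and Itgam, a chain of complement receptor 3, by 0.81 and 0.93. Serpinc1, antithrombin, was called lower at D3 with no control array and 1 exposed array above background, so no fold is given.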

How the data were processed

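RNA of 50 rats was read on Agilent arrays in 1 colour. Per the file headers, each deposited scanner file lists spot intensity, extracted per the labels with Agilent Feature Extraction 11.0.1.1, and the processed signal, corrected for background by that software, was used. The authors also deposited a matrix of intensity values, which by its values is the median spot intensity, quantile normalized and on a linear scale, and it was used as an alternative. In 22 files spreadsheet software had altered up to 84 gene names, which were taken from an unaltered file.

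Replicate spots were averaged as log2 values and arrays were quantile normalized. A probe was kept when 5 or more arrays gave it a signal above the 95th percentile of their negative control spots, and the brightest probe stood for a gene. Groups came from the sample labels. Limma 3.58.1 in R 4.3.3 fitted a mean for each of the 10 groups to 25208 genes, with Benjamini-Hochberg adjustment over all of them. Comparisons were exposed against control on each day, exposure effects at D28 and D180 against D0 as interactions, and control rats at D3 against D0 and D28 against D3. A marker score averages, over a list, each gene's deviation from its own mean log2 value. P-values come from limma's moderated t-tests, which set a difference of group means against the spread between rats, pooled over the 10 groups. The number of arrays limits precision.

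The members and lists were chosen with earlier results of these data known. Members called at any day were named with values by rat, as was the member of largest change in a role with no call, and at most 10 other pathway genes that were called. C4b, Fcna and Colec11 had no probe by name and Mbl2 did not pass the filter. Alternatives were 75th percentile scaling, normexp background correction with an offset of 50, no filter, a stricter filter, the mean of a gene's probes, slide as a block, the replicate number as a block, only the arrays of the days compared, other thresholds, the deposited matrix, and leaving out each rat.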

Additional observations from a re-analysis of the deposited data

Results flagged for a closer look

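The exposure effect differed between a later day and D0 in 6 tests, where 1.61% of all genes were called at D28 and 2.24% at D180. It was smaller at D28 for C4bpa (log2 difference -0.95) and Cfi (-0.83), and at D180 for C3 (-0.90), C4bpa (-1.30) and Cfi (-1.48). For Plat, which was under-expressed at D0, the difference at D180 was 0.73, and the Plat controls were highest at D0. Of 11 core clock genes 9 were called in each of these comparisons of days, and their part was not tested.

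Single rats stood far from the other 4 of their group in 7 of 130 groups of the 13 members given by rat, a rule that chance meets in about 1 of 20 groups. For F10, exposed replicate 4 at D3 was lowest at 4.57, with the others at 5.74 to 5.91. For C4bpa, exposed replicate 3 at D90 was lowest at 12.42, with the others at 12.83 to 12.87. For C3, exposed replicate 5 at D3 was highest at 16.35. For F2, control replicate 3 at D3 was lowest at 6.86. For C3ar1, exposed replicate 2 at D90 was highest at 6.61. For C6, control replicate 3 at D180 was highest at 10.27, with the others at 9.06 to 9.18. For Cfb, control replicate 2 at D28 was highest at 16.75. No cause was tested.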

How the results depend on the processing

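Of the 21 calls of a member at a day, none changed sign under the 11 alternatives or when 1 rat was left out. Under the alternatives 219 of 230 values were still called. The other 11 were those of C3ar1, C6 and F13a1 at D0 and of C6, F10 and F13a1 at D3. Alternatives that only loosened a threshold of the main fit could neither lose a call nor change a sign. Their values are among the 230. With 1 rat left out, 208 of 210 were still called, the exceptions being F13a1 at D0. With 1 rat left out the counts of called members ran from 9 to 12 at D0 and 7 to 9 at D3, were 3 at D28, 1 at D90 and 0 at D180, ran from 2 to 3 and from 4 to 5 for the effects at D28 and D180 against D0 and from 2 to 3 for control rats at D3 against D0, and were 0 for control rats at D28 against D3.

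With the adjusted p and no fold limit the counts from D0 to D180 were 22, 16, 8, 4 and 3. Of all genes 13.5%, 10.4%, 3.88%, 1.05% and 0.893% passed on these days. The counts were 8 for the effect at D180 against D0 (3.99% of all genes) and 9 for control rats at D3 against D0 (7.36%). With slide as a block they were 1 at D180 (C9), 6 and 9 for the effects at D28 and D180 against D0, and 1 for control rats at D28 against D3 (C9). The block added C9, C3ar1, C8b and Plat at D28 and C9, C6, C8b, F2 and F3 at D180 to those effects. With the unadjusted p and the fold limit they were 2 at D180, 5 and 10 for those effects, and 1 for control rats at D28 against D3. Scaling by the 75th percentile gave 8 for the effect at D180. Control rats at D3 against D0 gave 1 under normexp and 1 in the deposited matrix. Apart from the adjusted p with no fold limit, the shares of all genes called under these settings were not counted. The cause of the differences in counts was not tested.

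With the replicate number as a block the counts from D0 to D180 were 10, 7, 3, 1 and 0, with 2 and 4 for the effects at D28 and D180, and no call changed in number. The block gives no value for the 2 comparisons of control rats. Same-numbered rats correlated in their deviations at -0.34 to 0.45, with 8 of 25 pairs over 0.1, so the numbers were not taken as pairs. Dim signal limits F7, F9, F10, C8a, C8b and Masp2.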
